A study of Mus musculus with 20 samples.

Results

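The paired box genes Pax2, Pax3, Pax5 and Pax6 were examined in 4 windows of the mouse mm9 genome: chr19:44780000-44935000 (155 kb) for Pax2, chr1:78080000-78210000 (130 kb) for Pax3, chr4:44530000-44740000 (210 kb) for Pax5 and chr2:105490000-105550000 (60 kb) for Pax6. A window is a fixed span of coordinates, and every peak that touched one was taken. They held 1234 of the 4480164 peaks in the 10 lists, of which 475 were H3K27me3 peaks, 457 were Ezh2 peaks and 302 were pRb peaks. RefSeq's gene table for GRCm38.p6 gives Hif1an and Slf2 as the coding neighbours of Pax2, Epha4 and Gm2102 as those of Pax3, Melk and Zcchc7 as those of Pax5, and Rcn1 and Immp1l as those of Pax6, where Elp4 and Pax6os1 overlap the gene. That assembly is not the build of the peak files, so no peak was assigned to an exon, an intron or a start site.

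The cells were mouse embryonic fibroblasts, primary mesenchymal cells grown from C57BL/6 embryos of stage E13.5 and used at passage 4, either wild type (WT) or of a genotype labelled SS, which the labels do not spell out. Chromatin immunoprecipitation with sequencing was done for the histone mark H3K27me3 and for pRb, the retinoblastoma protein, in arrested and in proliferating cells, and for Ezh2 in serum-deprived cells. Growth medium held 10% serum. The H3K27me3 and Ezh2 cells were arrested by serum deprivation, whereas the arrested pRb cells carry a label of arrest at confluence, and the treatment text of 0.1% serum for 72 h stands with every sample, proliferating ones included. For pRb the labels list 5 antibodies. Each combination of antibody, growth state and genotype had 1 library, so no value has a replicate error, no difference was tested, and values are set side by side as descriptions of single libraries. Peak positions cannot show the cell type, so the fibroblast label was not checked.

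Pax proteins are developmental transcription factors that bind DNA through a paired domain. Pax2 acts in kidney, ear, eye and midbrain-hindbrain development, Pax3 in neural crest and muscle progenitors, Pax5 in commitment to the B cell lineage, and Pax6 in eye, brain and pancreas. In cells of other lineages such genes are typically held silent by Polycomb repressive complexes, in which Ezh2 is the enzyme that trimethylates lysine 27 of histone H3 (H3K27me3), often in broad domains around promoters rich in CpG dinucleotides.

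The promoters are shown because CpG content is a sequence feature tied to Polycomb domains. RefSeq's promoter table (GRCm38.p6) matched 3 of the 4 genes, with 3 start sites for Pax2, 1 for Pax5 and 2 for Pax6. The 250 bases before the first listed start site are given 5′ to 3′ on the gene's strand, with each CG, the motif searched, in capitals: chr19:44746351-44746600 on the plus strand for Pax2, chr4:44710695-44710944 on the minus strand for Pax5 and chr2:105668646-105668895 on the plus strand for Pax6. CG reads the same on both strands and overlaps no other motif searched.
Pax2: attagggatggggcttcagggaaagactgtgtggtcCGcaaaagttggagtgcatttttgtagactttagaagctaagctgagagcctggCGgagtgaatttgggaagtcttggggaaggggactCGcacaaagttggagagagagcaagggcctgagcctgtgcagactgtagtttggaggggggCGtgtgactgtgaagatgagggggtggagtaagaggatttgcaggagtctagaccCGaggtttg
Pax5: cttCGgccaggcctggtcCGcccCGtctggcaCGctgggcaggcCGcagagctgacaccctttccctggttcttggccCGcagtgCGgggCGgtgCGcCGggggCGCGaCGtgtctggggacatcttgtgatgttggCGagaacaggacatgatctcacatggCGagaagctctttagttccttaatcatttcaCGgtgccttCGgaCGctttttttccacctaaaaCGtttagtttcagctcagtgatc
Pax6: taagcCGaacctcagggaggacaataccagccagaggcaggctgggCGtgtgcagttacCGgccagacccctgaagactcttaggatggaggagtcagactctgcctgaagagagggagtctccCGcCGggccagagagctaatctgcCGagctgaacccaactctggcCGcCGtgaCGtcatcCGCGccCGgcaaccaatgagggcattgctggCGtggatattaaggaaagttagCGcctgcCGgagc
The Pax5 promoter held 19 CG, a number that 19.7% of the 32851 promoters in the table reach, and the Pax6 promoter held 15, which 27.3% reach. The first Pax2 promoter held 5, which 55.6% reach, but the other Pax2 start sites had 20 and 25. The median promoter of the table held 6. These positions belong to GRCm38 and cannot be laid over the mm9 peaks.

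The 4 H3K27me3 lists differed in make-up, which bears on every value below. The arrested WT list stood apart with 656342 peaks of median length 138 bp and 6 peaks over 10 kb. The arrested SS list had 227847 peaks (median 439 bp, 633 over 10 kb), the proliferating WT list 143252 (723 bp, 3420 over 10 kb) and the proliferating SS list 168793 (702 bp, 4000 over 10 kb). The autosomal share under H3K27me3 peaks was 7.47% for arrested WT, 6.45% for arrested SS, 9.51% for proliferating WT and 11.5% for proliferating SS cells. The lists do not give sequencing depth. With 1 arrested WT library, what belongs to that library and what belongs to the genotype cannot be told apart, and comparisons that do not use it are given beside those that do.

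In proliferating cells all 4 Pax windows held broad H3K27me3 domains in both genotypes. Pax2 was covered almost from edge to edge, 98.3% in WT and 98.5% in SS cells. Pax3 was covered to 83.1% and 89.1%, Pax5 to 70.6% and 78.4%, and Pax6 to 73.2% and 73.9%. Compared with autosomal tiles of the same length, the Pax windows were covered more than 98.0% to 99.99% of tiles, whichever window and proliferating list was taken.

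The shapes of these domains differed among the genes. At Pax2 a single WT peak, chr19:44782456-44920408, spanned 138.0 kb and was the fifth longest of its list, and the longest SS peak, chr19:44783404-44932627, spanned 149.2 kb and was the fourth longest. After joining peaks separated by at most 1 kb, here called a stretch, the Pax2 domain ran past the lower window edge and reached 250.9 kb in WT (chr19:44669531-44920408) and 267.6 kb in SS cells (chr19:44668880-44936441). The WT stretch stopped at a gap of 1064 bp, whereas the longest gap of the SS list in the window was 824 bp. Pax6 was held by 1 peak in each list, chr2:105486455-105533890 (47.4 kb) in WT and chr2:105486997-105534311 (47.3 kb) in SS. By the authors' score these Pax6 peaks ranked 22 and 23 in their lists. They left the upper 15.7 kb of the window bare of proliferating peaks.

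Pax3 and Pax5 had their longest domains at the upper side of the window and shorter, separated peaks below. The longest Pax3 peak was chr1:78160159-78219974 (59.8 kb) in WT and chr1:78157398-78219030 (61.6 kb) in SS cells. Both run out of the window at its upper edge. The Pax3 stretch there was 70.8 kb long in WT cells and 98.3 kb in SS cells, where it began at 78128489 rather than 78160159. This difference rests on the 1 kb limit. In WT cells the long peak began 80.159 kb from the window start and the peak below ended at 79.114 kb, just over 1 kb away. Below that gap, WT peaks lay less than 1 kb apart down to 48.882 kb. The longest Pax5 peak was chr4:44694710-44766673 (72.0 kb) in WT and chr4:44699548-44767038 (67.5 kb) in SS cells, within stretches of 101.2 kb and 106.4 kb. Of the Pax5 window, 33.9 kb had no proliferating peak of either genotype, against 11.4 kb at Pax3 and 0.739 kb at Pax2.

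**Figure D1:**
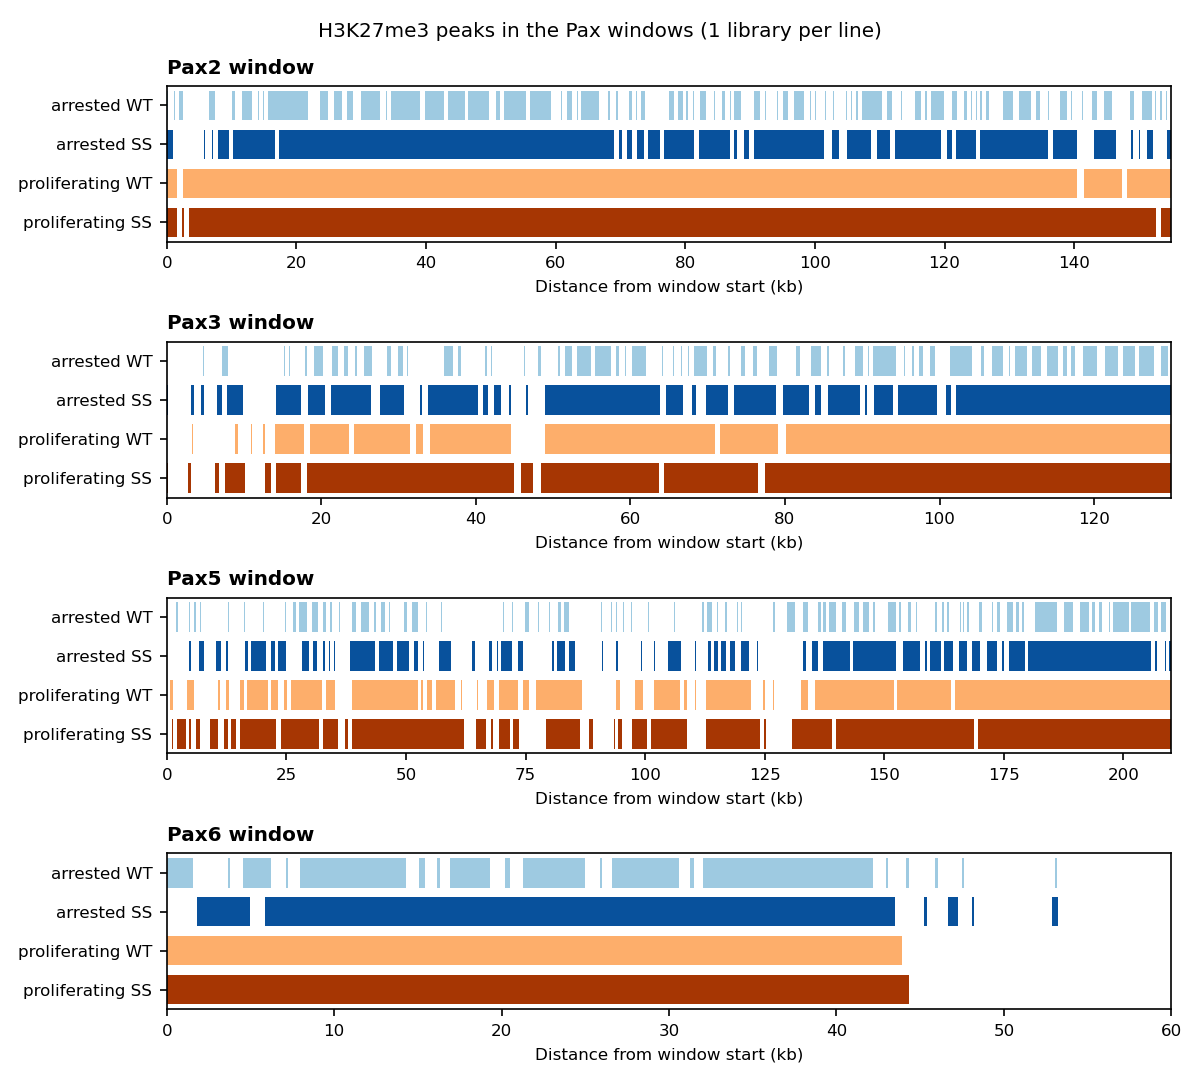
H3K27me3 peaks (filled blocks) in the 4 Pax windows, 1 line per library, against the distance from the window start in kb. Proliferating WT and SS blocks are near continuous at Pax2 and Pax6, the arrested SS line is interrupted by short gaps, and the arrested WT line is cut into many short peaks, 84 at Pax2 and 19 at Pax6.

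In arrested WT cells the same windows were still marked but the peaks were many and short. Pax2 coverage was 47.3%, in 84 peaks against 4 in proliferating WT cells. Pax3 was covered to 36.1% in 61 peaks against 12, Pax5 to 27.8% in 95 against 33, and Pax6 to 53.7% in 19 against 1. Each was still covered more than 99.6% to 99.96% of the autosomal tiles of its length, and 3.71 to 7.18 times the autosomal mean of the list. Pax5 had the lowest and Pax6 the highest coverage of the 4 windows in this list, whereas Pax2 led in the other 3 lists.

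The genes also differed in how the covered length was cut up. The median peak in arrested WT cells was 489 bp at Pax2, 451 bp at Pax3, 331 bp at Pax5 and 230 bp at Pax6. Peaks under 1 kb made up 29.4% of the covered length at Pax2, 32.5% at Pax3 and 41.5% at Pax5, but 6.97% at Pax6. The Pax6 window thus combined many very short peaks with a few long ones. Its longest, chr2:105521999-105532204, measured 10.2 kb and was 1 of the 6 peaks over 10 kb in the whole arrested WT list. The longest arrested WT peak was 6.13 kb at Pax2 (chr19:44795577-44801710), 2.94 kb at Pax3 (chr1:78181316-78184257) and 4.62 kb at Pax5 (chr4:44711442-44716059).

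In arrested SS cells coverage was higher and the peaks fewer and longer than in arrested WT cells in all 4 windows. Pax2 was covered to 80.0% in 28 peaks, Pax3 to 74.4% in 28, Pax5 to 50.4% in 60 and Pax6 to 70.0% in 6. The longest Pax2 peak, chr19:44797374-44849008, spanned 51.6 kb and was the third longest peak of the arrested SS list. The longest Pax6 peak, chr2:105495886-105533497 (37.6 kb), ranked 15 by length, the longest Pax3 peak, chr1:78182121-78212064 (29.9 kb), ranked 30, and the longest Pax5 peak, chr4:44710094-44735780 (25.7 kb), ranked 54. Peaks under 1 kb held 2.89% (Pax6) to 11.3% (Pax5) of the covered length.

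**Figure D2:**
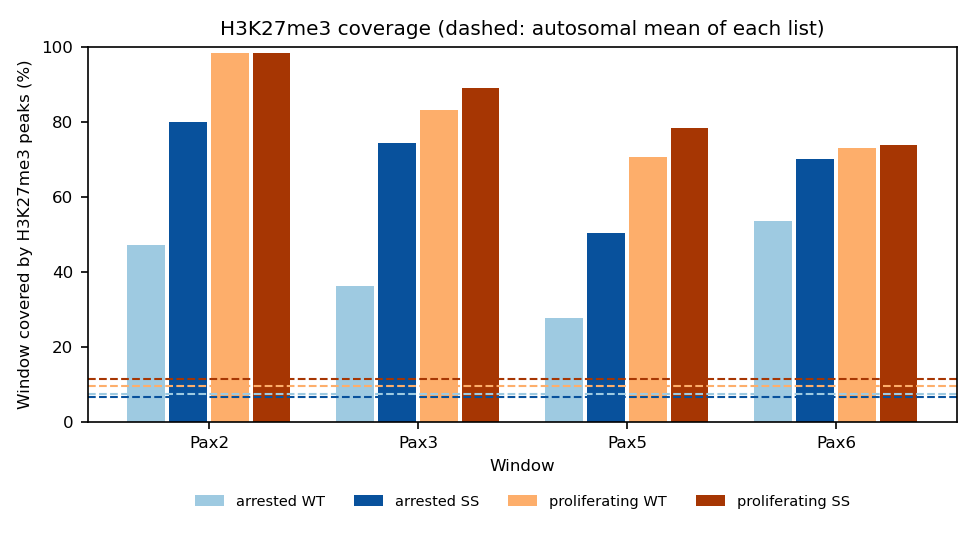
Share of each Pax window covered by H3K27me3 peaks (percent, bars from 0, 1 library per bar), with the autosomal mean of each list as a dashed line in the same colour. In every window the arrested WT bar is the lowest, from 27.8% at Pax5 to 53.7% at Pax6, and all bars stand above the autosomal means of 6.45% to 11.5%.

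Arrested SS over arrested WT coverage was 1.69 times at Pax2, 2.06 times at Pax3, 1.82 times at Pax5 and 1.30 times at Pax6, with a median difference of 27.7 percentage points. SS was higher in 4 of 4 windows, against 22.1% of the autosomal bins of 100 kb. A ratio of 1.5 or more was counted as a call. That was met in 3 of the 4 windows, whereas 9.23% of the 23999 autosomal bins of 100 kb with an arrested H3K27me3 peak met it and 64.3% had a ratio at or below 1/1.5. The bins are a background that is mostly outside H3K27me3 domains, and the comparison with domains is given further on. The order of the genotypes turned under a common cutoff on the scores, which carries any difference in depth between the libraries. At a cutoff of 8.51 on the authors' score (−log10 q-value, the median of the arrested WT list), no arrested SS peak was left in any Pax window, while WT coverage was 38.0% at Pax2, 28.0% at Pax3, 21.4% at Pax5 and 50.1% at Pax6. The arrested SS list had a median score of 1.77, and its highest score in the windows, 6.18 at Pax2, exceeded 99.6% of that list. This cutoff thus removes nearly the whole SS list, inside the windows or elsewhere, so the turned order was nearly fixed in advance. Filling gaps of up to 1 kb in both lists reduced the median difference to 16.0 points.

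In proliferating cells the SS list covered 1.00 times as much as the WT list at Pax2, 1.07 times at Pax3, 1.11 times at Pax5 and 1.01 times at Pax6. SS was higher in 4 of 4 windows, by 0.220 to 7.81 percentage points, as in 82.5% of autosomal bins, but with 10% of the window trimmed at each end Pax2 was at 100% in both genotypes. None of the 4 windows reached a ratio of 1.5, which 44.4% of bins did. With 70.6% or more of every Pax window already covered in WT cells, no window could have reached such a ratio.

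Arrested cells were set against proliferating cells within each genotype. In WT cells the ratio of coverage was 0.481 at Pax2, 0.435 at Pax3, 0.393 at Pax5 and 0.733 at Pax6. Arrested coverage was higher in 0 of 4 windows, against 66.3% of autosomal bins. In both genotypes the windows had less room to rise than most bins. Proliferating coverage was 70.6% to 98.3% in WT and 73.9% to 98.5% in SS cells, against autosomal means of 9.51% and 11.5%. A ratio at or below 1/1.5 was met in 3 of 4 windows in WT cells, against 24.7% of bins. The bins lie mostly outside H3K27me3 domains. Long domains of proliferating cells, compared further on, had a median arrested WT coverage of 29.9%. Those touching a Pax window held 17.4% to 66.4%, and the longest in each window 43.2% to 66.4%. In SS cells, where the arrested WT list plays no part, the ratios were 0.812, 0.834, 0.643 and 0.948 in the same order, with arrested coverage higher in 0 of 4 windows against 36.6% of bins. Pax5 alone, 1 of 4 windows, met the call of 1/1.5, against 49.3% of bins. With the windows trimmed by 10% of their length at each end, the SS difference at Pax6 turned to 0.835 points. By ratio, Pax6 differed least and Pax5 most in both genotypes.

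Arrested coverage was set against the bases marked in proliferating cells. Of the bases covered in both proliferating lists, arrested WT peaks covered 48.0% at Pax2, 43.0% at Pax3, 35.9% at Pax5 and 71.9% at Pax6. Arrested SS peaks covered 82.2%, 85.2%, 68.2% and 92.9% of the same bases. Of the bases covered in arrested WT cells, 87.1% at Pax2, 87.4% at Pax3, 71.4% at Pax5 and 90.8% at Pax6 were also covered in arrested SS cells. For scale, arrested WT peaks covered 47.3%, 36.1%, 27.8% and 53.7% of the whole windows in this order. Arrested SS peaks covered 80.0%, 74.4%, 50.4% and 70.0%, so the share at Pax2 was not far above coverage alone. Autosomal values of these shares are not given. Of the bases with no proliferating peak, arrested WT and SS peaks covered 8.52% and 8.43% at Pax3, 11.1% and 12.9% at Pax5, and 3.08% and 7.74% at Pax6. At Pax2, where such bases come to 0.739 kb, the shares were 75.2% and 0%. Bases under an arrested peak of either genotype but under no proliferating peak made up 0.359% of the Pax2 window, 1.40% of Pax3, 3.82% of Pax5 and 2.59% of Pax6.

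The proliferating lists of the genotypes shared most of their bases. The shared length was 97.7% of the joint length at Pax2, 88.8% at Pax3, 77.6% at Pax5 and 99.0% at Pax6. At Pax2, covered to 98.3% and 98.5%, the coverage alone nearly fixed this share, and high coverage raises it in the other windows too. The Pax6 domain ended at nearly the same place in all 4 lists. The upper end of its longest stretch was at 105533073 in arrested WT, 105533497 in arrested SS, 105533890 in proliferating WT and 105534311 in proliferating SS cells. Its lower end was less alike, at 105493644, 105491811, 105484274 and 105486997 in the same order of lists. What differed between the libraries at Pax6 was thus the continuity of the domain and its lower end more than its upper border.

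Tiles of 5 kb showed how evenly the mark was spread. At Pax2, 28 of 31 tiles were fully covered in proliferating WT and 29 in proliferating SS cells, 11 in arrested SS cells and 0 in arrested WT cells. The fully covered tiles at Pax3 were 15, 18, 8 and 0 of 26 in the same order of lists, and at Pax5 16, 20, 5 and 0 of 42. Pax6 had 8, 8, 6 and 1 of 12. No Pax2 tile was without arrested WT coverage, and the least covered one held 14.8%.

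The length of the longest stretch depended on the gap allowed between peaks. With gaps up to 1 kb joined and the stretch cut at the window edges, Pax2 gave 36.7 kb in arrested WT, 81.1 kb in arrested SS, 140.4 kb in proliferating WT and 155.0 kb in proliferating SS cells. The Pax3 values were 12.2, 29.8, 49.8 and 81.5 kb, and the Pax5 values were 11.9, 32.3, 74.5 and 79.4 kb. Those of Pax6 were 39.4, 41.7, 43.9 and 44.3 kb. The proliferating WT stretches at Pax2 and Pax3 each stopped at a gap just over 1 kb. Counted in percentage points, joining gaps of up to 1 kb moved the Pax6 value in arrested WT cells most. With no gap joined its arrested WT stretch was 17.0% of the window and with 1 kb joined it was 65.7%, near the 69.5% of arrested SS cells.

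With gaps of up to 3 kb joined the genotype order was not kept everywhere. The arrested WT stretch then took 95.8% of the Pax2 window and 64.1% of Pax3, below the arrested SS values of 96.3% and 89.1%. At Pax5 it took 40.3% and at Pax6 79.4%, above the SS values of 37.8% and 77.4%. The median gap between arrested WT peaks was 763 bp at Pax2, 942 bp at Pax3, 1374.5 bp at Pax5 and 806 bp at Pax6, so such a joining distance exceeds most gaps.

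**Figure D3:**
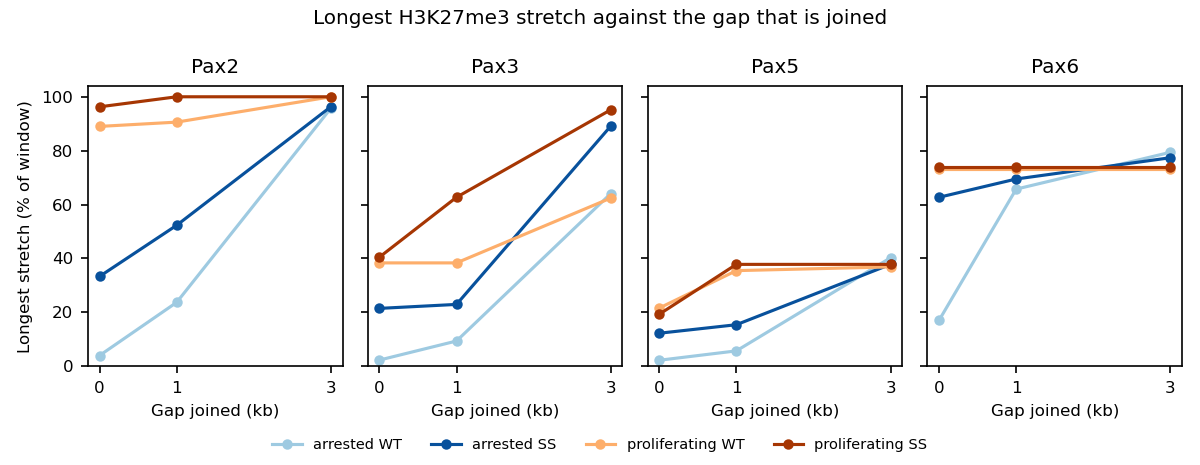
Longest H3K27me3 stretch as a percent of each Pax window against the gap joined in kb, 1 line per library. The arrested WT line starts lowest in every window, at 17.0% for Pax6 and 2.20% to 3.96% in the other windows, and is the highest of the 4 lines at 3 kb for Pax5 and Pax6.

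Long H3K27me3 domains elsewhere gave a closer comparison than bins. A domain was any run of overlapping proliferating peaks, from either genotype, that were each over 10 kb long. There were 4359 on the autosomes, and 9 of them touched a Pax window. The definition used no arrested list. The Pax2 window met domains of 150.2 kb (chr19:44782456-44932627), which ranked 6 of all domains by length, and 112.8 kb (chr19:44668880-44781644), which ranked 16. Nearly all of the 112.8 kb domain, and so of its coverage, lies outside the window, which begins at 44780000. The main Pax5 domain, chr4:44665519-44767038 (101.5 kb), ranked 21, the main Pax3 domain, chr1:78157398-78219974 (62.6 kb), ranked 82, and the Pax6 domain, chr2:105486455-105534311 (47.9 kb), ranked 181.

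In all 9 Pax domains the arrested coverage was higher in SS than in WT cells, as in 94.8% of all domains, and by 1.5 times or more in all except the Pax6 domain, as in 76% of all domains. The Pax domains were thus near the background of long domains in this respect. Coverage in arrested WT and arrested SS cells was 47.8% and 81.5% in the longer Pax2 domain, 49.4% and 84.3% in the main Pax3 domain and 43.2% and 80.1% in the main Pax5 domain, against medians of 29.9% and 58.9% over all domains. The Pax6 domain stood near the top in arrested WT cells with 66.4%, more than 99.7% of domains, and reached 89.6% in SS cells. Its ratio of 1.35 was higher than that of 16.4% of domains, whose median was 1.90.

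**Figure D4:**
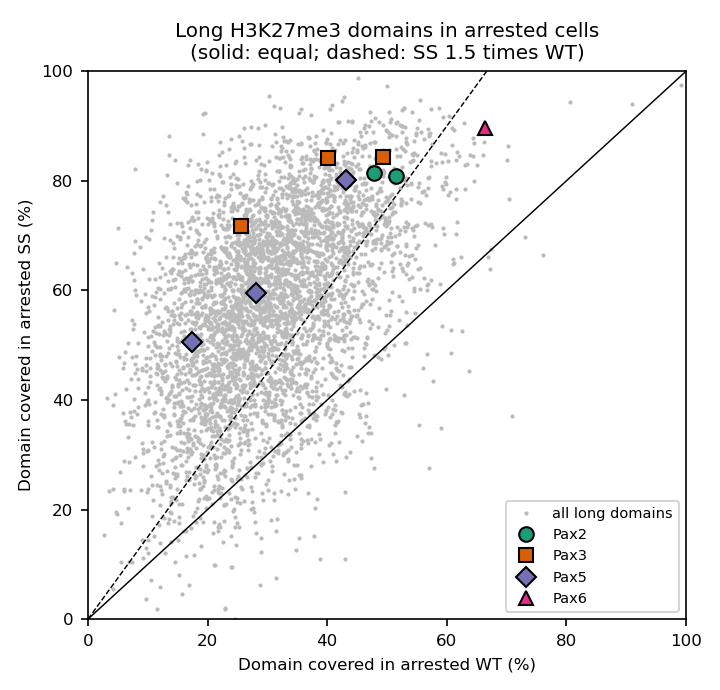
Coverage of 4359 long H3K27me3 domains in arrested SS (vertical, percent) against arrested WT cells (horizontal, percent), 1 grey point per domain, with the 9 domains touching Pax windows marked by gene. All 9 lie above the solid line of equal coverage, and the Pax6 domain, at 66.4% and 89.6%, lies below the dashed line of 1.5 times.

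Ezh2 peaks in the Pax windows were short and covered little, at about the level of the autosomes. Ezh2, the enzyme that writes the mark, covered 4.07% of Pax2 in WT and 4.74% in SS cells, in 60 and 57 peaks. Pax3 was covered to 4.00% and 5.31% (40 and 52 peaks), Pax5 to 3.42% and 6.51% (79 and 122) and Pax6 to 1.91% and 5.55% (15 and 32). The autosomal means were 3.20% and 4.91%, so the windows lay at 0.598 to 1.27 times the mean in WT and 0.965 to 1.32 times in SS cells. The longest Ezh2 peak was 0.536 kb in WT cells, at Pax3, and 0.603 kb in SS cells, at Pax5.

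The SS over WT ratio of Ezh2 coverage was 1.17 at Pax2, 1.33 at Pax3, 1.90 at Pax5 and 2.91 at Pax6. A ratio of 1.5 was reached in 2 of 4 windows, against 53.8% of autosomal bins, and SS was higher in 4 of 4, against 94.2% of bins. The Pax windows were therefore close to the background in these counts. Pax6, with the largest ratio, had the lowest WT coverage, in 15 peaks.

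pRb peaks were short as well, and in arrested cells their coverage of the Pax windows lay at 0.796 to 1.35 times the autosomal mean. In arrested WT cells pRb peaks covered 3.89% of Pax2, 3.50% of Pax3, 2.70% of Pax5 and 3.93% of Pax6, in 30, 23, 28 and 13 peaks. In arrested SS cells the values were 5.26%, 5.68%, 7.36% and 4.34%, in 35, 40, 68 and 11 peaks. Pax5 coverage in arrested SS cells exceeded 96.8% of tiles of the same length, and the other arrested values exceeded 23.8% to 84.9%. The SS over WT ratios were 1.35, 1.62, 2.73 and 1.10. SS was higher in 4 of 4 windows, as in 95.1% of autosomal bins, and 2 of 4 passed 1.5 against 69.3% of bins. With the higher-scoring 50% of each list alone, SS was higher in 2 of the 4 windows.

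In proliferating cells pRb covered under 1% of every Pax window. WT coverage was above the autosomal mean of 0.456% in all 4, at 2.07 times at Pax2, 2.17 times at Pax3, 1.53 times at Pax5 and 1.12 times at Pax6, and that of Pax2 and Pax3 exceeded 96.7% of tiles of the same length. SS coverage was 0.615 to 1.46 times the mean of 0.619%. The values in WT and SS cells were 0.946% and 0.606% at Pax2, 0.990% and 0.901% at Pax3, 0.700% and 0.380% at Pax5, and 0.513% and 0.660% at Pax6. These rest on 2 to 10 peaks per window and list. SS was higher in 1 of 4 windows, Pax6, against 64.7% of bins, and a ratio at or below 1/1.5 was met at Pax2 and Pax5, 2 of 4 windows, against 19.5%. Arrested over proliferating pRb coverage was 3.54 to 7.67 times in WT and 6.31 to 19.4 times in SS cells. All 4 windows passed 1.5 in both genotypes, as did 99.7% of bins in WT and 99.9% in SS cells, which is a property of the whole lists.

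**Figure D5:**
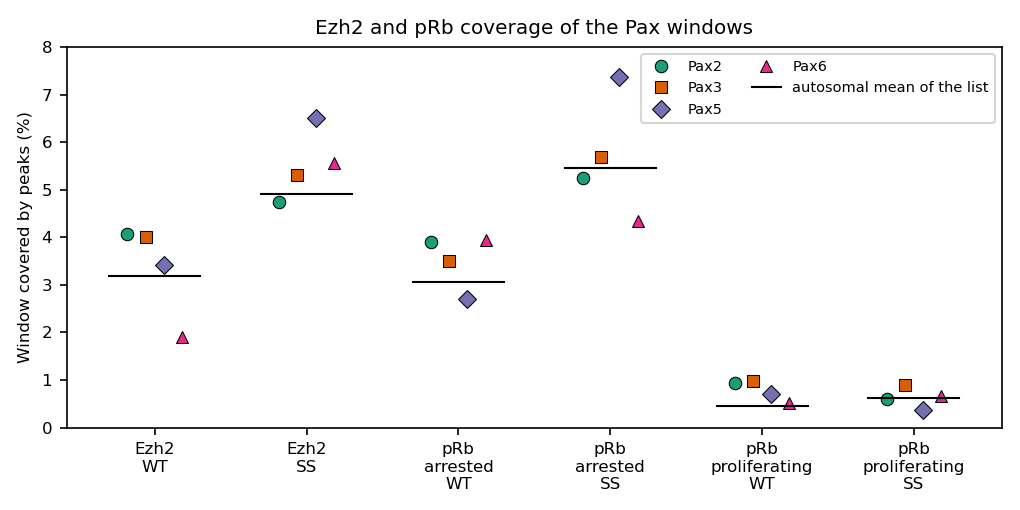
Share of each Pax window covered by Ezh2 or pRb peaks (percent), 1 column per library, with the autosomal mean of the list as a black line. The points lie on both sides of the line in 5 of the 6 lists, the widest being Pax5 in arrested SS pRb at 7.36%, and all proliferating pRb points are under 1%.

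In most lists the share of Ezh2 or pRb peaks that met an H3K27me3 peak lay near the share of the windows that H3K27me3 covered. Of 194 Ezh2 peaks in WT cells, 78 (40.2%) shared at least 1 bp with an arrested WT H3K27me3 peak, where H3K27me3 covered 38.0% of the 4 windows. In SS cells 165 of 263 (62.7%) did, with 66.4% of the windows covered. For arrested pRb the values were 45 of 94 (47.9%, against 38.0% covered) in WT and 103 of 154 (66.9%, against 66.4%) in SS cells. For proliferating pRb they were 26 of 31 (83.9%, against 81.5%) in WT and 20 of 23 (87.0%, against 86.0%) in SS cells. Over all autosomal peaks every such share was above the autosomal coverage. It was 11.3% for Ezh2 and 13.7% for arrested pRb in WT cells, against 7.47% covered. In SS cells it was 8.37% and 9.27%, against 6.45%. For proliferating pRb it was 11.4% against 9.51% in WT and 14.6% against 11.5% in SS cells. Among the Pax windows the widest gap was at Pax2 in arrested WT cells, where 22 of 30 pRb peaks (73.3%) met H3K27me3 in a window covered to 47.3%, and 19 of the 30 were covered over at least 50% of their length. An overlap of 1 bp is met more easily than a base is covered, most of all where H3K27me3 peaks are many and short. The covered share is therefore a low mark to set these shares against.

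Few single Ezh2 and pRb peaks of the Pax windows were met by a peak of another list, at shares near those of all autosomal peaks. Of the Ezh2 peaks, 22 met a peak of the other genotype, 11.3% of the WT and 8.37% of the SS peaks, where the autosomal shares were 11.5% and 8.15%. Of the arrested pRb peaks, 10 did, 10.6% of the WT and 6.49% of the SS peaks, against 11.1% and 7.25% on the autosomes. For proliferating pRb 0 of 31 WT and 0 of 23 SS peaks did, against 1.70% and 1.25%. An Ezh2 peak was met by 9 of 94 arrested pRb peaks in WT (9.57%) and 28 of 154 in SS cells (18.2%), against 10.5% and 16.7% of all autosomal arrested pRb peaks.

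A few single peaks had high ranks by the authors' score, which is used here only within its own list. The strongest pRb peak at Pax6 in arrested WT cells, chr2:105526487-105526628, ranked 102 of 424588, and it lay inside the Pax6 H3K27me3 domain. The strongest at Pax3 in proliferating WT cells, chr1:78095315-78095384, ranked 115 of 77809. For Ezh2 the highest ranks were 1689 of 840543 for chr4:44726244-44726293 at Pax5 in WT cells and 1746 of 1184135 for chr2:105494204-105494299 at Pax6 in SS cells. At Pax2 the best rank in these 6 lists was 4435, for an Ezh2 peak in SS cells at chr19:44839370-44839456. None of these named peaks was met by a peak of another pRb or Ezh2 list.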

How the data were processed

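Peak lists of 10 immunoprecipitated libraries were used (4 H3K27me3, 4 pRb, 2 Ezh2), 1 library per group by sample title. The 10 input libraries were not analysed here. The submitters' processing notes name mm9 as the build and list MACS2, Bowtie2, bedtools and HOMER, without roles, versions or settings. There is 1 list for each library. The lists hold no read counts, so depth is unknown and no interval based on it is given. A deeper library, or another setting of the caller, yields other numbers and lengths of peaks, and this cannot be corrected from the lists.

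The authors deposited a score per peak in every list. For the 4 pRb lists it has no stated unit. The other 6 lists also hold, as deposited by the authors, a fold enrichment (ratio) and the −log10 p-value and −log10 q-value per peak, and the −log10 q-value served as their score. Scores ranked or filtered peaks within a list, except at the common cutoff. Fold enrichments were not compared between lists.

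Coverage is the union of peaks cut at the window edges over the window length. A stretch joins peaks separated by at most 1 kb. Backgrounds were autosomal bins of 100 kb, tiles of each window's length, and long domains. A ratio of 1.5 was a call, and overlap needed 1 bp. Alternatives were the higher-scoring 50% of each list, peaks of at least 500 bp, peaks within 1 kb merged, windows trimmed by 10% of their length at each end, a common score cutoff, gaps of 0 or 3 kb, and an overlap of 50% of the peak. The interval functions were tested on simulated data. The text names the longest peak and stretch per window in H3K27me3 lists and the highest-scoring peak in pRb and Ezh2 lists. Windows, thresholds and comparisons were chosen with earlier results of these data known. Pax1, Pax4, Pax7, Pax8 and Pax9 were not used here, for want of an mm9 annotation. Positions are mm9 as deposited, counted from 1. Analyses ran in Python 3.11.15 with pandas 2.3.3, numpy 2.4.6 and scipy 1.17.1, and plots were drawn with matplotlib 3.10.9.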

Additional observations from a re-analysis of the deposited data

Results flagged for a closer look

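The SS minus WT difference in pRb coverage had opposite signs in arrested and in proliferating cells at 3 of the 4 Pax windows. At Pax2 it was 1.36 percentage points in arrested and -0.341 in proliferating cells, 1.71 apart. At Pax3 it was 2.18 and -0.0892, 2.27 apart, and at Pax5 4.67 and -0.320, 4.99 apart. With 1 library per group none of these gaps was tested, the proliferating values rest on 6 to 10 peaks per window and list. The signs also depended on the processing. The arrested Pax2 difference was -0.197 with the higher-scoring 50% of each list and with a common cutoff, and the proliferating one was 0.0729 with peaks within 1 kb merged. At Pax3 the arrested difference was -0.448 with peaks of at least 500 bp and the proliferating one 0.158 with trimmed windows. With peaks of at least 500 bp the proliferating differences were 0 in all 3 windows.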

How the results depend on the processing

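No paired analysis was possible because each group had 1 library, and for the same reason no library could be left out. Of the values that answer a comparison, 40 recomputed under an alternative stayed near the main value, 12 moved and 1 reversed. These labels do not show that a direction held. Reversed was open only to main differences that met the call, so other changes of sign were labelled near or moved. For the arrested H3K27me3 difference at Pax6, 16.4 points, a value of -50.1 under the common cutoff was labelled moved. With peaks within 1 kb merged, 3.54 was labelled near. Directions are therefore given below as counts of windows. The common score cutoff reversed the median arrested H3K27me3 difference, SS minus WT, to -33.0 points (Pax2 -38.1, Pax3 -28.0, Pax5 -21.4), because 0 SS peaks in the windows reached it. The direction was kept in 0 of 4 windows, Pax6 included, and the cutoff lay above at least 99.6% of the arrested SS list. The common cutoff brought arrested minus proliferating in WT cells to -16.7 points from -44.9. With peaks within 1 kb merged, the first became 16.0, the second -27.1, and the Ezh2 difference rose to 8.02 points from 2.20. For the longest stretch, as the median percent of window, arrested WT gave 16.5, and 3.11 with no gap joined, 71.7 with 3 kb joined and 11.1 from peaks of at least 500 bp. Arrested SS gave 37.6, and 27.4 with no gap and 83.3 with 3 kb joined. Proliferating WT gave 55.7, and 67.8 with 3 kb joined, and proliferating SS 68.3, and 57.2 with no gap and 84.5 with 3 kb joined. For pRb, the arrested Pax3 difference reversed to -0.448 points with peaks of at least 500 bp, and the proliferating Pax2 difference to 0.0729 with peaks merged. The direction of the arrested pRb difference held in 2 of 4 windows with the higher-scoring 50%, the common cutoff or peaks of at least 500 bp, and that of Ezh2 in 2 of 4 with the last. The proliferating pRb direction held in 2 of 4 windows with trimmed ends. Trimming also left 3 of 4 for proliferating H3K27me3, SS minus WT, and for arrested minus proliferating in SS cells. The direction of the arrested H3K27me3 difference held in 4 of 4 windows under the other 4 alternatives. Beyond what is stated here, the causes were not tested.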
